A study of Mus musculus with 12 samples.

Results

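The genes of the vasopressin and oxytocin systems were followed in the hypothalamus of male ICR mice, an outbred strain, that had either water alone or a choice between water and alcohol. The 5 genes are Avp and Oxt, which encode the 2 peptides, and Avpr1a, Avpr1b and Oxtr, which encode their receptors. They were found by their gene symbol in the array files, as 6 of the 41174 probes that were not control spots, with 1 probe for each gene and 2 for Oxtr. The mice were 3 weeks old at the start and drank water from both tubes for the first 5 days. Water-only mice then kept water in both tubes, whereas mice of the alcohol groups had a tube of 5% or 10% alcohol beside a tube of water. The sample labels place the sacrifice on day 51, and the design text has drinking last to day 57. RNA of 9 water-only mice was hybridized as 3 pools of 3 mice, and RNA of 19 alcohol mice as 9 pools of 1 to 3 mice, each pool on 1 array. The labels name 3 pools each of low, early and late alcohol drinkers, and do not say which pools had 5% and which 10% alcohol. Early and late drinkers are called early high and late high here. Nothing but the pool was replicated, so p-values measure the spread between pools.

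Vasopressin and oxytocin are made by large neurons of the paraventricular and supraoptic nuclei, which send both peptides to the posterior pituitary and from there into the blood. Vasopressin keeps water in the kidney and raises blood pressure, and is made by clock neurons of the suprachiasmatic nucleus as well. Oxytocin acts on the uterus and on milk ejection. Both act in the brain on social behavior, stress and drinking, through receptors that signal through Gq proteins and phospholipase C. Each peptide is cut from a precursor that also holds a neurophysin, its carrier protein, and the 2 precursor genes are neighbors that are read in opposite directions.

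The probes of Avp and Oxt are 60 bases long. They are shown because they share part of their sequence, and a probe for one could bind some RNA of the other. Capitals mark their longest shared run of 15 bases. The Avpr1b probe follows because it was well above background on some arrays and not on others.
Avp: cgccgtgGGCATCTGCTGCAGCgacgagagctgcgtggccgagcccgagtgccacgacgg
Oxt: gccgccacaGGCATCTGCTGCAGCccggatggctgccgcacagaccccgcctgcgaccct
Avpr1b: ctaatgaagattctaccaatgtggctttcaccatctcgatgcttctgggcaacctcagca
Placed side by side without gaps, the Avp and Oxt probes had 38 identical bases over an overlap of 58. Among the other pairs of member probes the longest shared run was 8 bases. In the mm9 coordinates of the array files the Oxt probe lies on the plus strand at chr2:130402501-130402644 and the Avp probe on the minus strand at chr2:130406552-130406817, 3907 bases apart. These spans of 144 and 266 bases are longer than the 60 bases of a probe, as for a probe across an exon junction. The Avpr1b probe spans chr1:133497240-133506038, 8799 bases on the plus strand. The Avpr1a probe lies at chr10:121890135-121890194 on the plus strand. The Oxtr probes lie on the minus strand at chr6:112426025-112426086 and chr6:112438974-112439033.

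Values are log2 signals relative to the 75th percentile of each array, so that a step of 1 is a doubling. The signal at that percentile lay between 1512 and 1853 units, between 29072 and 34398 of 43379 spots per array were well above background, and no spot was saturated. Each of 3 slides took 4 arrays. All 3 water pools shared slide 1 with low drinker pool 1. On slide 2 were pools 2 and 3 of the low and pools 1 and 2 of the early high drinkers. The last early high pool shared slide 3 with those of the late high drinkers. Slide and group can therefore be told apart in part only, and for early and late high drinkers against water not by any array on a shared slide. Low drinker pool 2 stood apart in dim spots, with a lower quartile of the signal of 63.2 against 22.3 to 34.0 on the other arrays. All 6 markers of the hypothalamus (Agrp, Npy, Hcrt, Pmch, Nkx2-1 and Kiss1) were well above background on every array.

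Avp and Oxt were well above background on every array, and neither differed between alcohol and water beyond the spread between pools. Avp, the precursor of vasopressin, lay at 4.98, 4.85 and 4.76 in the water pools. It lay at 4.81, 4.71 and 4.70 in low drinkers, at 5.05, 4.96 and 4.73 in early high drinkers and at 4.75, 5.11 and 4.99 in late high drinkers. The low drinkers were close together at the lower end, and the other groups overlapped over most of the range. The mean was 4.87 ± 0.16 (SD, n = 9) with alcohol and 4.86 ± 0.11 (SD, n = 3) with water. That is a difference of 0.0059 on the log2 scale (SE 0.099, 95% interval from -0.21 to 0.22), with an adjusted p of 0.994 by limma and an exact permutation p of 0.964 (2-sided, over all 220 ways to draw the water arrays). Only 4 of 9 alcohol pools lay above the water mean.

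Oxt, the precursor of oxytocin, lay at 5.17, 5.34 and 4.80 in the water pools. The low drinkers lay at 5.19, 5.09 and 5.11, the early high drinkers at 5.37, 5.51 and 4.97, and the late high drinkers at 5.29, 5.61 and 5.25. Every group overlapped the water pools, of which pool 3 was the lowest of all 12 arrays. The mean was 5.27 ± 0.21 (SD, n = 9) with alcohol against 5.10 ± 0.28 (SD, n = 3) with water. The difference of 0.16 (SE 0.14, 95% interval from -0.15 to 0.47) had an adjusted p of 0.839 by limma and an exact permutation p of 0.309 (2-sided), with 7 of 9 alcohol pools above the water mean. Without water pool 3 the difference was 0.0089, and without water pool 2 it was 0.28. In tissue RNA, fewer neurons of a kind and less RNA per neuron cannot be told apart.

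**Figure D1:**
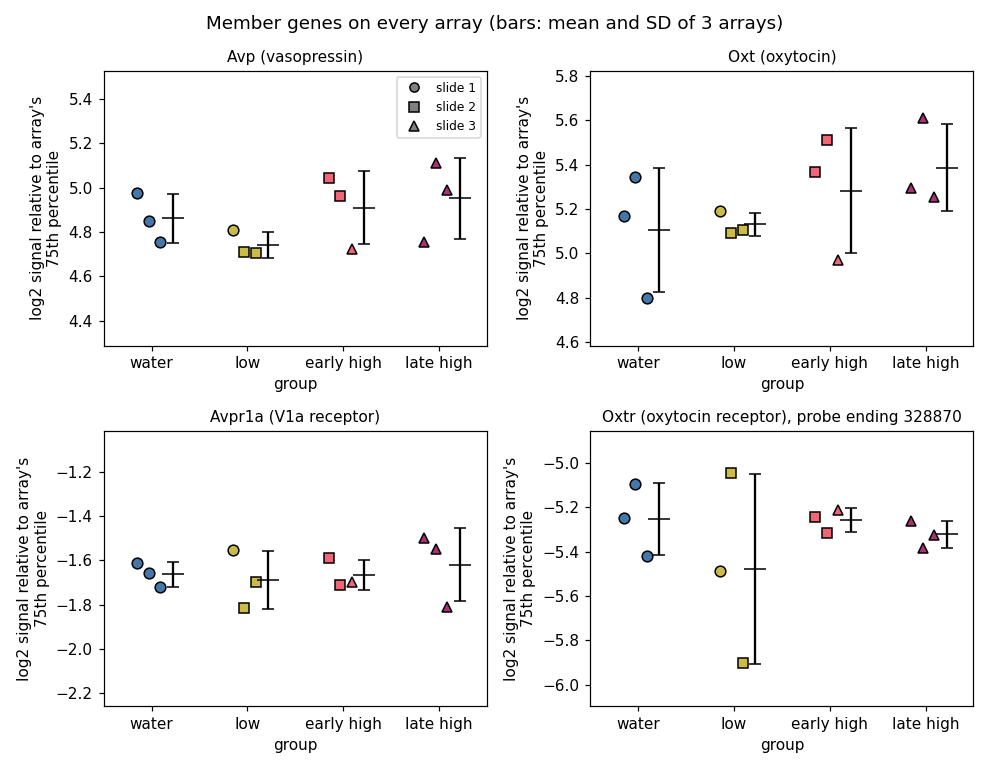
Log2 signal relative to the 75th percentile of the array (vertical axis) by group (horizontal axis) for Avp, Oxt, Avpr1a and the brighter Oxtr probe. Each point is 1 array, its shape gives the slide, bars give the mean and SD of 3 arrays, and all panels span the same range; every alcohol group overlaps the water group in every panel, and for Oxt the late high drinkers (5.25 to 5.61) lie above the low drinkers (5.09 to 5.19).

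In the order of the group means, Avp ran from late high (4.95) through early high (4.91) and water (4.86) to low drinkers (4.74), and Oxt from late high (5.39) through early high (5.28) and low drinkers (5.13) to water (5.10). All neighbors in both orders overlapped, but the 3 late high pools (5.25 to 5.61) lay above the 3 low pools (5.09 to 5.19) for Oxt, a pair that was not tested on its own. High drinkers, early and late together, exceeded low drinkers by 0.19 for Avp (SE 0.096, 95% interval from -0.024 to 0.40, unadjusted p = 0.0764 and adjusted p = 0.365 by limma). For Oxt the same difference was 0.20 (SE 0.15, 95% interval from -0.13 to 0.53, adjusted p = 0.505 by limma). The late high drinkers exceeded water by 0.28 for Oxt (SE 0.17, 95% interval from -0.10 to 0.66, adjusted p = 0.464 by limma) and by 0.090 for Avp (SE 0.11). With slide as a fixed term these were 0.84 for Oxt and 0.47 for Avp. Late high drinkers and water share no slide, so that fit joins them through steps within slides. For Oxt the steps were 0.087 (low against water, slide 1), 0.34 (early high against low, slide 2) and 0.42 (late against early high, slide 3). The first rests on 1 low pool and the last on 1 early high pool. Without scaling the differences of late high drinkers from water were 0.41 for Oxt (unadjusted p = 0.0208, adjusted p = 0.233 by limma) and 0.21 for Avp. Without late high drinker pool 2 they were 0.17 for Oxt and 0.0099 for Avp, without water pool 3 0.13 and 0.038, and Avp was 0.19 without late high drinker pool 1 and 0.15 without water pool 1. These differences share their control arrays and are not independent of each other. All 7 anterior pituitary markers were lower in high than in low drinkers, with a median difference of -1.11 against -0.056 over all probes, and 5 of them (Gh, Prl, Lhb, Tshb and Fshb) had an unadjusted p under 0.05 by limma, as had 15.5% of all probes. So had 2 of 6 markers of the choroid plexus, 2 of 5 of the striatum, 1 of 4 of the cortex and 1 of 6 of the hypothalamus (Kiss1), all lower in high drinkers, against 0 of 5 thalamus and 0 of 3 blood markers. For late high drinkers against water, where 15.7% of all probes had an unadjusted p under 0.05, so had 3 of 3 blood, 2 of 7 pituitary, 2 of 6 choroid plexus and 2 of 5 striatum markers, all lower in late high drinkers, and 1 of 5 thalamus and 1 of 4 cortex markers, both higher, against 0 of 6 of the hypothalamus. The smallest adjusted p among the pituitary markers was 0.160 for high against low drinkers by limma. The summed level of the 7 pituitary markers was 18.1 to 41.8 times the 75th percentile in low drinkers, 11.9 to 15.7 in early high, 13.6 to 17.3 in late high drinkers and 16.4 to 24.5 with water. That of the 6 hypothalamus markers was 91.0 to 104, 93.3 to 115, 96.7 to 116 and 86.7 to 102 in the same order. That of 5 thalamus markers was 5.01 to 12.6, 4.53 to 13.0, 9.24 to 18.7 and 6.56 to 7.98, and that of 3 blood markers 96.4 to 148, 104.7 to 132, 74.7 to 102 and 120.4 to 148. In the pituitary sum, on a linear scale, Pomc weighed most on every array. In low drinker pool 1 it lay at 5.01 on the log2 scale, against 2.78 for Cga. The paper speaks of Pomc expression in the hypothalamus too, so this sum is not a level of the pituitary alone. The part of these cell types in the differences of Avp and Oxt was not tested.

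The slides allowed a narrower look. On slide 2, the mean of the 2 early high pools exceeded that of the 2 low pools by 0.30 for Avp and 0.34 for Oxt. On slide 3, the mean of the 3 late high pools exceeded the single early high pool by 0.23 for Avp and 0.42 for Oxt. How many of all probes part so few arrays was not counted. The 2 genes also varied together, as described below, and are not independent results. On slide 1, low drinker pool 1 lay inside the range of the 3 water pools for both genes. With slide as a fixed term the difference of high from low drinkers was 0.41 for Avp (unadjusted p = 0.0211, adjusted p = 0.272) and 0.55 for Oxt (unadjusted p = 0.0340, adjusted p = 0.316) in limma. These values were over 1.5 times those without it. They are built from the same steps within slides 2 and 3 and add no separate result. Without scaling between arrays the difference of high from low drinkers was 0.32 for Avp (unadjusted p = 0.0111, adjusted p = 0.217) and 0.33 for Oxt (unadjusted p = 0.0274, adjusted p = 0.272) by limma. The median of all probes then moved from -0.056 to 0.072. No setting brought either gene under an adjusted p of 0.05.

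The probes of Avp and Oxt varied together over the 12 arrays. Pearson's r was 0.732 (permutation p = 0.00602) and Spearman's rho 0.713 (permutation p = 0.0124). After adjustment over the 6 pairs among Avp, Oxt, Avpr1a and Oxtr these were 0.0361 and 0.0747, and the other 5 pairs had r between -0.099 and 0.395. Without the 2 arrays farthest from the median of Avp, early high drinker pool 1 and late high drinker pool 2, r was 0.573 (permutation p = 0.0844), so the relation rests in part on those arrays. It was 0.75 after the mean of each slide was taken out and 0.707 after the mean of each group was taken out. Within single slides of 4 arrays each r was 0.519, 0.883 and 0.816. The shared run of the probes, given above, and the nuclei in which both peptides are made are common to the 2 genes, and their part in the relation was not tested.

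**Figure D2:**
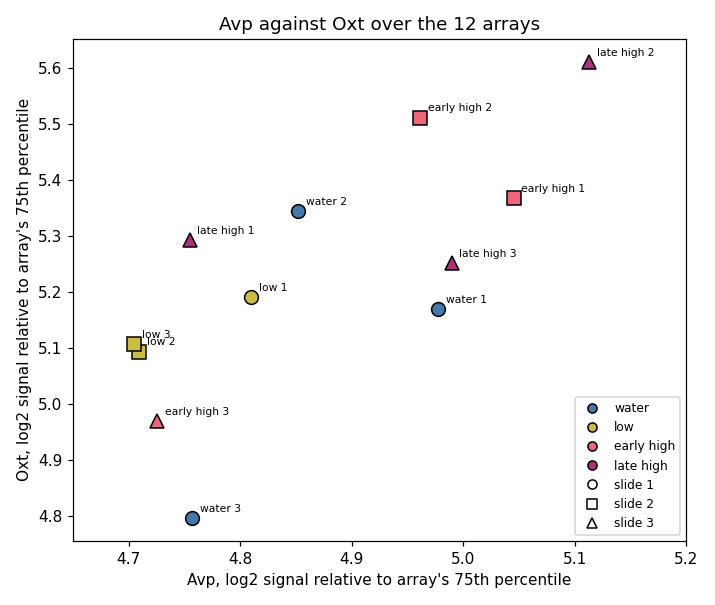
Oxt (vertical axis) against Avp (horizontal axis), both as log2 signal relative to the 75th percentile of the array, for the 12 arrays; color gives the group and shape the slide. Late high drinker pool 2 is at the upper right (5.11 and 5.61), and water pool 3, early high drinker pool 3 and low drinker pools 2 and 3 are at the lower left.

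Oxt was not the gene most like Avp. Over 12506 other genes that were well above background on every array, the 5 with the highest Pearson's r to Avp over the 12 arrays were B4galnt1 (0.889), Alkbh3 (0.868), Slc39a7 (0.866), Ctnnal1 (0.847) and Kcnt1 (0.840), and Oxt ranked 62. B4galnt1 makes gangliosides, Slc39a7 is a zinc transporter and Kcnt1 a sodium-activated potassium channel. Closest to Oxt were Unc93b1 (0.886), Cltb (0.886), Kcnt1 (0.867), Trim28 (0.861) and Ache (0.858), and Avp ranked 120. Cltb is a clathrin light chain and Ache is acetylcholinesterase. Kcnt1 was in both lists, with an SD of 0.058 over the arrays. Such r values are descriptions over 12 arrays that share slides, and the median gene had an r of -0.046 to Avp and 0.017 to Oxt. The SD over all 12 arrays was 0.14 for Avp, 0.22 for Oxt and 0.10 for Avpr1a, where the median of 26040 probes well above background on every array was 0.13. Of these probes, 56.9% had a lower SD than Avp, 78.5% a lower SD than Oxt and 33.2% a lower SD than Avpr1a.

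Since the 2 peptide genes varied together, the 250 bases before their RefSeq start (GRCm38.p6) were read for 5 motifs on both strands. The motifs were the TATA box TATAAA, the E-box CACGTG bound by clock factors, the half-site TGACG of the cAMP response element, the nuclear receptor half-site AGGTCA and the AP-1 site TGANTCA. Capitals in both sequences mark the matches.
Oxt, chr2:130575919-130576168, plus strand: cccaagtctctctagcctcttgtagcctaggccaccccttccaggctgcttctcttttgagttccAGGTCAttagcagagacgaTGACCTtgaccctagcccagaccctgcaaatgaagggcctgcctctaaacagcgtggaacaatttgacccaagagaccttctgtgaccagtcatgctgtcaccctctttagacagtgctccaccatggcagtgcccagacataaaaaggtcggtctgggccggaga
Avp, chr2:130582589-130582838, minus strand: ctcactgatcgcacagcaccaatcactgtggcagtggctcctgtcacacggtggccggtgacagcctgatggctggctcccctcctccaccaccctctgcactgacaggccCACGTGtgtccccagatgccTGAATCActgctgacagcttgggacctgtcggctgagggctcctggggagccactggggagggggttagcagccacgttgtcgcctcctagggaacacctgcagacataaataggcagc
The Avp stretch held 1 E-box, 139 to 134 bases before the start, and 1 AP-1 site, 119 to 113 bases before it. The Oxt stretch held 2 nuclear receptor half-sites, the first 185 to 180 and the second 166 to 161 bases before the start. None of the 5 motifs was found in both. Of 32851 mouse promoters of the same length, 6.02% held the E-box, 6.75% the AP-1 site, 14.02% the nuclear receptor half-site, 12.4% the TATA box and 17.8% the cAMP response element half-site. A match says only that these letters are present, and the longest run that the 2 stretches shared was 10 bases.

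Avpr1a, the V1a receptor and the main vasopressin receptor of the brain, had the smallest spread of the 4 genes with a value on every array. It lay at -1.61, -1.66 and -1.72 in the water pools, at -1.55, -1.82 and -1.70 in low drinkers, at -1.59, -1.71 and -1.70 in early high drinkers and at -1.50, -1.55 and -1.81 in late high drinkers. All groups overlapped. Alcohol and water differed by 0.0046 (SE 0.073, 95% interval from -0.16 to 0.17, adjusted p = 0.994 by limma, exact permutation p = 0.941).

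Oxtr, the oxytocin receptor, was near the lower limit of the arrays. Its 2 probes went different ways for high against low drinkers, and both were lower in late than in early high drinkers. The brighter probe, well above background on 9 of 12 arrays, lay at -5.25, -5.09 and -5.42 in the water pools. It lay at -5.49, -5.05 and -5.90 in low drinkers, at -5.24, -5.32 and -5.21 in early high drinkers and at -5.26, -5.38 and -5.32 in late high drinkers. Low drinkers spread the most, and of their 3 arrays pool 1 alone was well above background. Alcohol and water differed by -0.099 (SE 0.14, 95% interval from -0.41 to 0.21, adjusted p = 0.893 by limma, exact permutation p = 0.523), and the sign turned, to 0.033, with another background correction. The difference was -0.43 after quantile normalization. With slide as a fixed term it was -0.23, which is low drinker pool 1 alone against the water pools. By leaving out single arrays it ran from -0.18 (without water pool 3) to -0.019 (without water pool 2), and was -0.030 without low drinker pool 3. Low drinkers differed from water by -0.22 (SE 0.18, adjusted p = 0.770 by limma), by -0.98 after quantile normalization (unadjusted p = 0.00807, adjusted p = 0.477 by limma) and by 0.080 with normexp background correction. High drinkers lay 0.19 above low drinkers (SE 0.15, adjusted p = 0.552 by limma), or 0.40 without low drinker pool 2 and 0.83 after quantile normalization, with adjusted p of 0.413 and 0.208. The sign turned without low drinker pool 3 (-0.023) and with normexp background correction (-0.070). The mean of the Oxtr probes with a value gave -0.33, but it is the brighter probe alone on some arrays. It mixes probes of unlike level, so its sign is no result about Oxtr.

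The dimmer Oxtr probe had a value on 8 of 12 arrays and was well above background on 1, low drinker pool 2, where it lay at -4.30. The remaining values lay between -6.86 and -5.62, with 1 in water pool 3, 1 in low drinker pool 3, 3 in early high and 2 in late high drinkers. High drinkers lay below low drinkers at this probe, with an unadjusted p of 0.0198 and an adjusted p of 0.249 by limma, and with unadjusted p that ran over the alternatives from 0.00505 with normexp background correction to 0.237 after quantile normalization and 0.419 without the spot filter. The low drinker mean rests on 2 arrays, and low drinker pool 2 is the array with the raised dim spots. Without that array the probe had too few values in low drinkers to be fitted. Since high drinkers were not well above background on any array, no size is given for the difference.

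Avpr1b, the V1b receptor by which vasopressin acts on the corticotrophs of the anterior pituitary, gave a signal well above background on 3 of 12 arrays. These were early high drinker pool 2 at -5.12, late high drinker pool 2 at -4.32 and late high drinker pool 3 at -4.99. On the other 9 arrays its signal, before any filter, lay between -8.80 and -6.13. The 3 arrays were all of high drinkers, and the other 3 high drinker arrays were among the dim ones. With values on 4 arrays the probe passed the presence filter in no comparison. Without the spot filter, alcohol and water had an adjusted p of 0.853 and late high drinkers and water one of 0.659 by limma. The unfiltered mean of the late high drinkers was -6.03, below the level of -5.96 that a dim probe could have had in the water pools unseen, so no fold is given. The summed level of 7 anterior pituitary genes (Gh, Prl, Cga, Lhb, Tshb, Fshb and Pomc, of which 4 were well above background on every array) was 11.9, 15.6 and 13.6 times the 75th percentile on those 3 arrays. It was 13.8 to 41.8 on the other arrays, with the highest in low drinker pool 1, where Avpr1b was not well above background. Pomc, which is not a gene of the pituitary alone, weighed most in each of these sums.

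**Figure D3:**
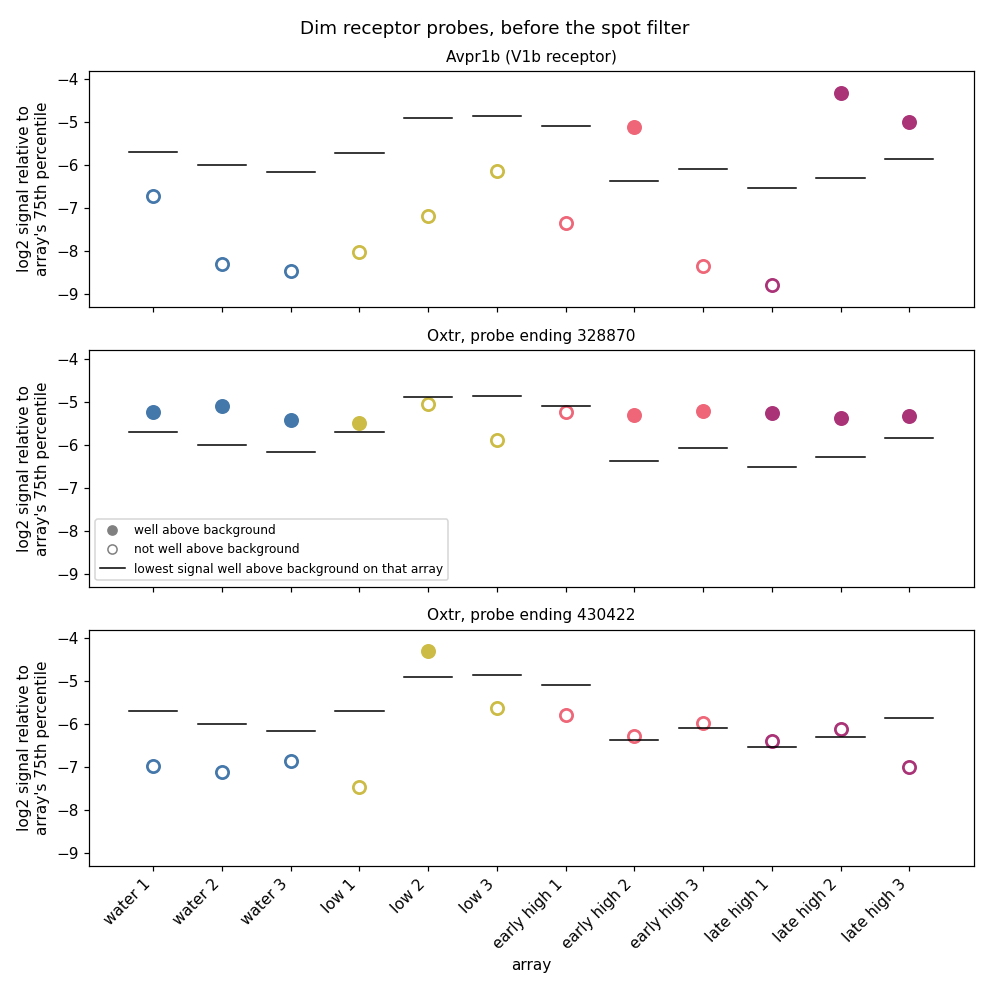
Log2 signal relative to the 75th percentile of the array (vertical axis), before the spot filter, on each of the 12 arrays (horizontal axis) for Avpr1b and both Oxtr probes. Filled points were well above background and open points were not, and short lines give the lowest signal well above background on that array; Avpr1b is filled on 3 high drinker arrays, the brighter Oxtr probe on 9 arrays and the dimmer one on low drinker pool 2 alone.

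Of the members, 4 probes could be tested against water and 5 among the drinkers, and none passed an adjusted p of 0.05 in any of 6 comparisons. In the comparison of alcohol with water 0 of 4 passed, as did 0% of the 32376 probes tested, and 0 of 4 had an unadjusted p under 0.05, against 5.53% of all probes. For low drinkers against water both counts were again 0 of 4, where 0.179% of all probes passed the adjusted and 9.15% the unadjusted threshold. Early high drinkers against water gave 0 of 4 at both, against 0% and 4.8% of all probes. Late high drinkers against water gave 0 of 4 at both as well, against 0% and 15.7%. Among high and low drinkers 0 of 5 passed the adjusted threshold, against 0.0744% of all probes, and 1 of 5, the dimmer Oxtr probe, had an unadjusted p under 0.05, against 15.5%. Without scaling between arrays 3 of 5 were under the unadjusted threshold for high and low drinkers, against 5144 of 32250 probes. Late and early high drinkers gave 0 of 5 at both, against 0% and 12.1%.

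**Figure D4:**
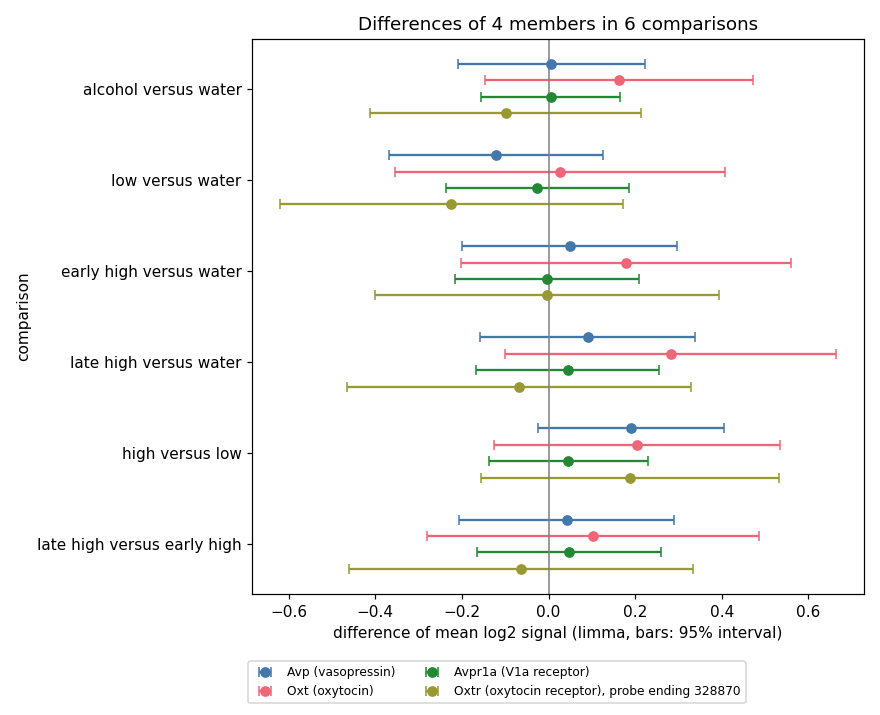
Difference of mean log2 signal (horizontal axis) for Avp, Oxt, Avpr1a and the brighter Oxtr probe in 6 comparisons (vertical axis), the group named first minus the second; points are limma estimates and bars 95% intervals. All 24 intervals include 0, and those of Avp and Oxt for high against low drinkers reach from -0.024 to 0.40 and from -0.13 to 0.53.

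The pathway around the peptides was described through 6 lists with 51 genes, 48 of them on the array and 46 tested for alcohol against water. None passed an adjusted p of 0.05, and the smallest adjusted p was 0.819 by limma. At an unadjusted p under 0.05 there were 7, or 15.2%, of which 6 were higher and 1 lower with alcohol, against 5.53% of all probes. The lists were chosen with earlier results of these data known, so this excess is no evidence about the pathway. In the other comparisons the share of such genes fell on either side of that over all probes. The median difference was 0.063, against 0.027 over all probes. All water pools were on slide 1, so the values for low drinker pool 1, on the same slide, are given beside the genes.

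Of the 8 genes that process or break down the peptides, all were tested, with a median difference of 0.077 and 1 at an unadjusted p under 0.05. This was Cpe, carboxypeptidase E, which trims peptides after the precursor has been cut. It lay at 6.49, 6.55 and 6.52 with water and from 6.51 through a median of 6.63 to 6.71 with alcohol, a difference of 0.10 (SE 0.046, unadjusted p = 0.0449 by limma). Low drinker pool 1 was 0.094 above the water mean, and a second probe of Cpe differed by 0.018. Pam, which amidates both peptides, had the largest difference upward (0.11, SE 0.15), with 0.035 and -0.10 at its other probes and 0.066 without early high drinker pool 1. Lnpep, the oxytocinase, had the largest downward (-0.0040, SE 0.072), with 0.026 and 0.21 at its other probes. Low drinker pool 1 differed from the water mean by -0.21 for Pam and 0.14 for Lnpep, both against the sign of the mean difference.

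Among 7 tested genes of release and osmosensing the median was -0.018 and no gene had an unadjusted p under 0.05. Cd38, which is needed for oxytocin release, had the largest difference upward (0.23, SE 0.58) and Syt4, a vesicle protein of oxytocin terminals, the largest downward (-0.10, SE 0.31). For both, the error exceeded the difference. That of Cd38 turned to -0.44 without water pool 1 and was -0.18 at a second probe, and that of Syt4 ran from -0.23 without late high drinker pool 1 to -0.032 without late high drinker pool 2. Low drinker pool 1 differed from the water mean by 1.14 for Cd38 and -0.064 for Syt4. Of 6 tested transcription factors of the paraventricular and supraoptic nuclei, with a median of 0.078, Pou3f2, needed for these neurons to form, had the largest difference upward (0.44, SE 0.21, unadjusted p = 0.0551 by limma). Low drinker pool 1 differed from the water mean by -0.22 there. Magel2, a gene lost in Prader-Willi syndrome, had the largest downward (-0.13, SE 0.070), with low drinker pool 1 at -0.033 from the water mean.

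Among the 6 tested peptides and enzymes that these neurons share, with a median of 0.097, Th, the tyrosine hydroxylase of dopamine synthesis, had the largest difference. It lay at 0.20, 0.73 and 0.63 with water and between 0.35 and 1.57 with a median of 1.05 with alcohol. All but 1 of 9 alcohol pools, late high drinker pool 1 at 0.35, exceeded every water pool, and the difference was 0.51 (SE 0.20, unadjusted p = 0.0253, adjusted p = 0.819 by limma). Low drinker pool 1 was 0.55 above the water mean. Pdyn, the dynorphin precursor that vasopressin neurons make too, had the largest difference downward (-0.096, SE 0.065), with low drinker pool 1 at 0.038 from the water mean.

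The suprachiasmatic list, of a nucleus where many neurons make vasopressin, had 3 of 6 tested genes at an unadjusted p under 0.05 and a median of 0.11. Prok2, a peptide by which this nucleus signals, lay at -1.21, -1.26 and -1.52 with water and between -1.92 and -1.45 with a median of -1.62 with alcohol. It was below every water pool in 8 of 9 alcohol pools and differed by -0.34 (SE 0.10, unadjusted p = 0.00632, adjusted p = 0.819 by limma), and by -0.51 at a second probe. Vip, a peptide that couples the clock neurons, differed by 0.25 (SE 0.099, unadjusted p = 0.0267 by limma), with -1.42, -1.39 and -1.74 in water and -1.54 to -1.10 in alcohol pools, and by 0.14 without water pool 3. Six6, a transcription factor of this nucleus, differed by 0.25 as well (SE 0.10, unadjusted p = 0.0323 by limma). Low drinker pool 1 differed from the water mean by -0.28 for Prok2, 0.25 for Vip and 0.041 for Six6.

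Of 14 receptor signaling genes 13 were tested, with a median of 0.084 and 2 at an unadjusted p under 0.05. Prkca, protein kinase C alpha, which acts after phospholipase C, lay at -3.14, -3.27 and -3.25 with water and between -3.08 and -2.82 with a median of -3.01 with alcohol. All 9 alcohol pools lay above all 3 water pools, and the difference was 0.24 (SE 0.060, unadjusted p = 0.00192, adjusted p = 0.819 by limma), with low drinker pool 1 at 0.16 above the water mean. Plcb4, a phospholipase C of this pathway, differed by 0.26 (SE 0.12, unadjusted p = 0.0448 by limma), but low drinker pool 1 lay at -0.21 from the water mean and was the lowest of all arrays. Gnaq, the Gq subunit itself, had the largest difference downward (-0.059, SE 0.058), with low drinker pool 1 at -0.024 from the water mean. Avpr2, the kidney receptor of vasopressin, was well above background on 1 of 12 arrays and was not tested.

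**Figure D5:**
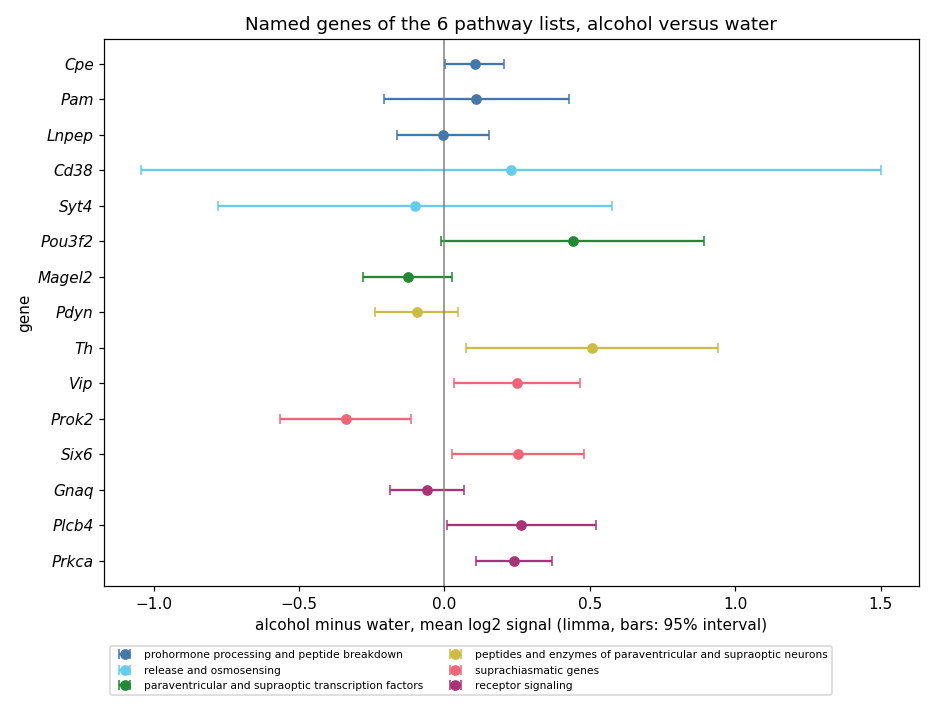
Difference of mean log2 signal, alcohol minus water (horizontal axis), for the 15 named genes of the 6 lists (vertical axis, color gives the list); points are limma estimates and bars 95% intervals. Intervals of Cpe, Th, Vip, Prok2, Six6, Plcb4 and Prkca do not include 0 before adjustment, with Prok2 alone below 0.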

How the data were processed

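The authors deposited the scanner output of 12 Agilent 1-color arrays, with Cy3 signal intensity per spot on a linear scale, corrected for background by Feature Extraction 10.5.1.1 and not scaled between arrays. Their table of intensity per probe, also deposited, was an alternative. From the log2 intensities the 75th percentile of the array (43379 spots without controls) was subtracted here. Spots called non-uniform outliers, or whose signal was under 2 times its error, were left out, and testing a probe required a value on over 50% of the arrays in each group. The comparisons used limma 3.58.1 with R 4.3.3 (lmFit, eBayes, Benjamini-Hochberg over all probes), alcohol against water over 2 groups and the rest over 4. Single genes had exact permutation tests, and the correlation 100000 permutations (scipy 1.17.1). The probe of a list gene was that of highest mean. Named were every member, and of each list the largest difference each way and every gene at an unadjusted p under 0.05 for alcohol against water. Members and lists were chosen with earlier results of these data known. On simulated data with 200 probes moved by 1, limma recovered 155 for alcohol against water (32376 probes). It recovered 133 to 154 in the other comparisons, with 6 to 12 false calls over all 6. That move is larger than every difference given for Avp and Oxt, and the simulation had no slide effect. Sequences before gene starts came from RefSeq, GRCm38.p6, positions of probes from the array files, and probe annotation within genes is not given in the sources used here. No 2 arrays had identical values. The number of arrays limits the precision.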

Additional observations from a re-analysis of the deposited data

Results flagged for a closer look

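The dimmer Oxtr probe lay at -4.30 in low drinker pool 2, the highest of the 7 alcohol arrays with a value and far from the next, low drinker pool 3 at -5.62, a gap of 0.627 of the range. It was the 1 array on which this probe was well above background. Of 5 member probes looked at in this way, it was the only one with an array so far out. Chance gives such a gap in about 1 of 20 groups from which no value was left out. Here the spot filter had left out low drinker pool 1 and late high drinker pool 3, which lay lowest of the alcohol arrays before it, at -7.46 and -7.00. The range was therefore cut short at its lower end, the gap is a smaller part of the range with them, and that rate does not apply.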

How the results depend on the processing

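No member passed an adjusted p of 0.05 in any of 155 fits with other settings, and the correlation of Avp and Oxt kept its sign and an unadjusted p under 0.05 under other scalings, another background correction, no spot filter and with each array left out (r between 0.622 and 0.782), but not without the 2 arrays farthest from the median of Avp (p = 0.0844). Of 644 other values of member differences, 58 had the opposite sign, as had 20 of 360 for the list genes, none past the threshold. Without scaling and in the authors' table, Oxt in low drinkers against water was -0.054, the brighter Oxtr probe was 0.057 in late high drinkers against water and 0.090 against early high drinkers, and Lnpep with alcohol was 0.00066. Quantile normalization gave -0.013 for Avp and -0.017 for Avpr1a with alcohol, -0.014 for Oxt in low drinkers against water and 0.16 for Oxtr in late against early high drinkers. With normexp, alcohol against water gave -0.0078 for Avpr1a and 0.033 for Oxtr, low drinkers against water 0.0081 for Avpr1a, 0.080 for Oxtr and -0.016 for Oxt, early high drinkers against water 0.067 for Oxtr, and high against low drinkers -0.024 for Avpr1a and -0.070 for Oxtr. The mean of the Oxtr probes with a value gave 0.19 for low drinkers against water, -0.33 for high against low and 0.00095 for late against early high drinkers. Where the dimmer probe had no value (water pools 1 and 2, low drinker pool 1 and late high drinker pool 3) this is the brighter probe alone. These signs thus depend on which arrays had a value of the dimmer probe.

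With slide or scan day as a fixed term, alcohol against water came from slide 1 alone, where low drinker pool 1 was the only alcohol array. The value was then that pool minus the mean of the water pools, not a mean over all alcohol pools. It was -0.052 for Avp, -0.21 for Pam, 0.14 for Lnpep, -0.22 for Pou3f2, 0.038 for Pdyn and -0.21 for Plcb4. Low drinkers against water, from the same arrays, gave 0.11 for Avpr1a. Early high drinkers against water gave 0.21 (slide) and 0.20 (scan day) for Avpr1a. With slide as a random term the values were -0.0074 for Avp and 0.029 for Lnpep with alcohol and 0.017 for Avpr1a in early high drinkers. All the fixed-term values rest on low drinker pool 1 as the only alcohol array beside the water pools. The cause of the turns with the random term was not tested.

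Leaving out each array in turn, alcohol against water ranged from -0.047 to 0.064 for Avp, 0.0089 to 0.28 for Oxt, -0.18 to -0.019 for Oxtr, 0.14 to 0.31 for Vip, 0.066 to 0.15 for Pam, -0.23 to -0.032 for Syt4, -0.024 to 0.031 for Avpr1a, -0.032 to 0.028 for Lnpep and -0.44 to 0.60 for Cd38. Low drinkers against water ranged from -0.094 to 0.038 for Avpr1a, -0.13 to 0.15 for Oxt and -0.44 to -0.013 for the brighter Oxtr probe. Early high drinkers against water ranged from -0.019 to 0.14 for Avp, -0.042 to 0.022 for Avpr1a and -0.087 to 0.076 for Oxtr. For late high drinkers against water the ranges were -0.017 to 0.14 for Avpr1a and -0.15 to 0.011 for Oxtr. High against low drinkers ranged from -0.018 to 0.11 for Avpr1a and -0.023 to 0.40 for Oxtr, and late against early high drinkers from -0.051 to 0.14 for Avp, -0.013 to 0.14 for Avpr1a and -0.054 to 0.22 for Oxt.

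The replicate numbers did not pair the arrays, since same-numbered arrays had correlated deviations of -0.089 to 0.18, over 0.1 in 3 of 18 pairs. With the replicate number as a block, 0 member probes were called in each comparison, and the Oxt difference of late high drinkers from water was 0.28 with an unadjusted p of 0.0446 (0.131 without the block) and an adjusted p of 0.320 by limma. Over all probes, the 57 called for low drinkers against water ranged from 0 to 2506 and the 24 for high against low from 0 to 2927 under other settings. The 0 called in the other comparisons reached 4 for alcohol against water (slide as a fixed term), 205 for early high drinkers against water (those groups alone), 403 for late high drinkers against water (without late high drinker pool 3) and 194 for late against early high drinkers (without early high drinker pool 3). The 2506 came without low drinker pool 1, which gave 2505 for high against low, and the 2927 with scan day as a fixed term. Oxtr and Avpr1b were too dim for firm values.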
